A study of Homo sapiens with 4 samples.

Results

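The regions described here are stretches of the genome where ATF3 signal was listed as a peak in both libraries of SW480 cells kept in cystine-restricted medium and in exactly 1 of the 2 libraries of cells kept in full medium. They lie between the gained regions, listed in both cystine-restricted libraries but in no full-medium library, and the common regions, listed in all 4, and they are called intermediate regions below. The members were chosen by the presence or absence of a listed peak in each of the 4 peak lists, after peaks sharing at least 1 bp on chromosomes 1 to 22 and X had been merged. There were 4617 intermediate regions among 44826 merged regions, or 10.3% (95% Wilson interval 10.02 to 10.6). They made up 22.4% (21.8 to 22.95) of the 20633 regions reproducible under cystine restriction, beside 5685 gained and 10331 common regions. Wilson intervals cover counting error over regions only.

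SW480 is an established line from a colorectal adenocarcinoma. The cells were grown for 24 h with full or with restricted cystine, giving 2 libraries per medium, and no other treatment or genetic change is labelled for either group. ATF3 was profiled with an antibody in CUT&Tag, in which the antibody brings a transposase to chromatin so that DNA around the bound protein is cut and tagged. The labels call the 2 libraries of a medium separate samples of the same line and do not say whether they came from separate cultures. The spread between them may therefore be technical. No library without the antibody, which would give the background of the assay, was analysed here.

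ATF3 belongs to the bZIP transcription factors, which bind DNA as dimers at AP-1 and cAMP-response-type elements. Cells switch it on under stress, including when amino acids run short, through the pathway that runs from GCN2 and ATF4. Cystine is the oxidised form in which cells take up cysteine, which is needed for glutathione and for defence against lipid peroxidation. The title of the series names CBS, the enzyme that takes homocysteine into the route to cysteine, as activated by ATF3. The genes and the sequence under the intermediate regions were not analysed here, so regions are given by position on build hg19.

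Height is given as the summit pileup, the number of overlapping tags at the highest point of a peak, divided by the genome background, the pileup expected if all tags were spread evenly over the genome. Pileups and backgrounds were worked out from the deposited fold enrichment and −log10 p of each peak. The genome background was 1.30 tags for cystine-restricted replicate 1, 1.08 for replicate 2, 1.11 for full-medium replicate 1 and 1.32 for its replicate 2. The lists held 33838 and 29607 peaks under cystine restriction and 17447 and 19132 peaks in full medium, which are means of 31722.5 ± 2992 and 18289.5 ± 1191 (SD, n = 2 each). The two-sided exact permutation p for this difference was 0.33, the smallest that 2 libraries against 2 can give.

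Intermediate regions stood between gained and common regions in height in each cystine-restricted library, and nearer to the gained ones. In cystine-restricted replicate 1 the median height was 14.6 times the genome background at intermediate regions (interquartile range 11.6 to 20.03), 12.3 at gained regions and 27.0 at common regions. In replicate 2 the medians were 14.8 (11.1 to 19.4), 11.99 and 25.8. The middle ranges of intermediate and gained regions overlapped widely, and 95% of intermediate regions were at or below 32.4 and 30.4 times the background. In tags, the median summit pileup of intermediate regions was 19 in cystine-restricted replicate 1 and 16 in its replicate 2. Heights in these lists decided which regions could be members, so these values are a description and carry no test.

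**Figure D1:**
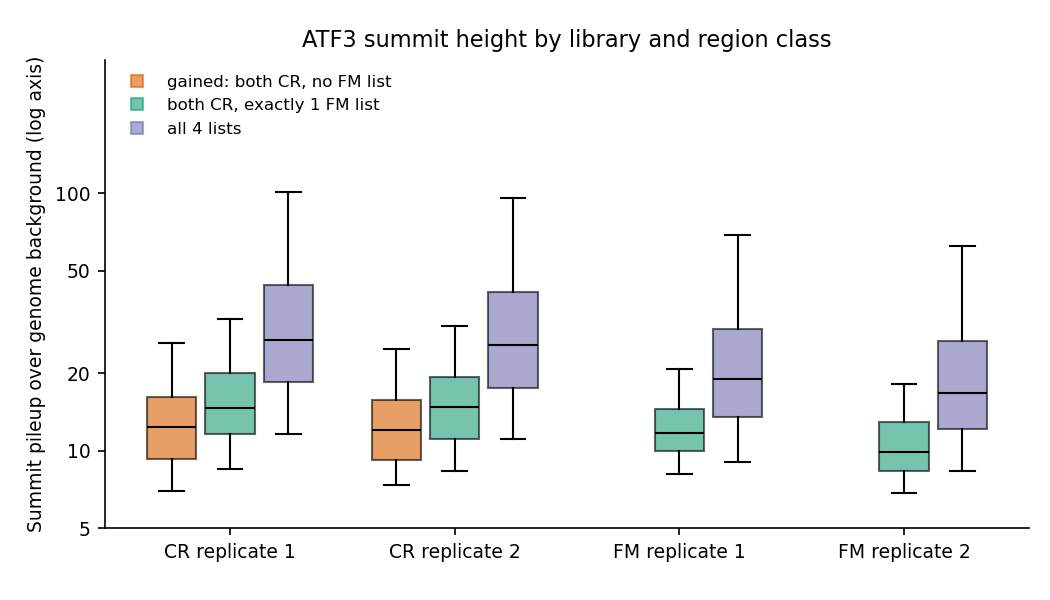
Summit pileup over genome background (log axis) by library, for gained, intermediate (both CR, exactly 1 FM list) and common regions. CR is cystine-restricted and FM full medium; boxes give the median and quartiles and whiskers the 5th and 95th percentiles over regions. Intermediate regions had medians of 14.6 and 14.8 in the CR libraries and 11.7 and 9.86 in the FM libraries that listed them.

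In full medium the peaks of intermediate regions belonged mostly to the lower part of their lists. The rule favours this, as the other full-medium library listed no peak there. The 1985 regions with a peak in full-medium replicate 1 had a median height of 11.7 times the genome background there (interquartile range 9.94 to 14.5), against 19.0 at common regions in the same library. The 2632 regions with a peak in full-medium replicate 2 had a median of 9.86 (8.34 to 12.9), against 16.7 at common regions. In both full-medium libraries the median pileup of these peaks was 13 tags, and the lowest pileup listed was 7. Their median rank percentile by −log10 p was 35.0 within the list of replicate 1 and 35.8 within that of replicate 2. Under cystine restriction the same regions had median rank percentiles of 57.9 and 53.1, within longer lists. Those lists held 33838 and 29607 peaks, against 17447 and 19132 in full medium. A percentile therefore does not mark the same position from the top in the 2 media, and no rise in rank is read from it.

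Read from the side of the full-medium lists, 11.9% (11.4 to 12.4) of the peaks of replicate 1 and 14.4% (13.9 to 14.9) of the peaks of replicate 2 lay in intermediate regions. The share was highest in the third decile of the list of replicate 1, counted from the weakest, at 19.8% (17.97 to 21.7). In replicate 2 it was highest in the fourth decile, at 24.1% (22.2 to 26.1). Among the strongest decile of each list, 0 of 1745 peaks of replicate 1 (upper Wilson limit 0.220%) and 1 of 1914 peaks of replicate 2 lay in an intermediate region. In these deciles 99.9% and 99.8% of peaks lay in common regions. An intermediate region is by the rule missing from the other full-medium list, so few members are left among strong peaks. The shares are a description.

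The share of intermediate regions was highest at low to middle strength under cystine restriction. Regions reproducible under cystine restriction were ordered by their rank percentile in the library where it was lower, and split into deciles. Intermediate regions were 25.4% (23.6 to 27.4) of the weakest decile, 33.3% (31.3 to 35.3) of the third, 30.6% (28.7 to 32.7) of the fifth, 14.01% (12.6 to 15.6) of the eighth and 1.21% (0.822 to 1.78) of the strongest. In the fourth decile the shares of the classes were closest to each other, with 32.7% intermediate, 37.5% gained and 29.9% common. Gained regions were most frequent in the weakest decile and common regions in the strongest, whereas intermediate regions peaked between. The ranks and the classes come from the same lists, so the order is a description.

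**Figure D2:**
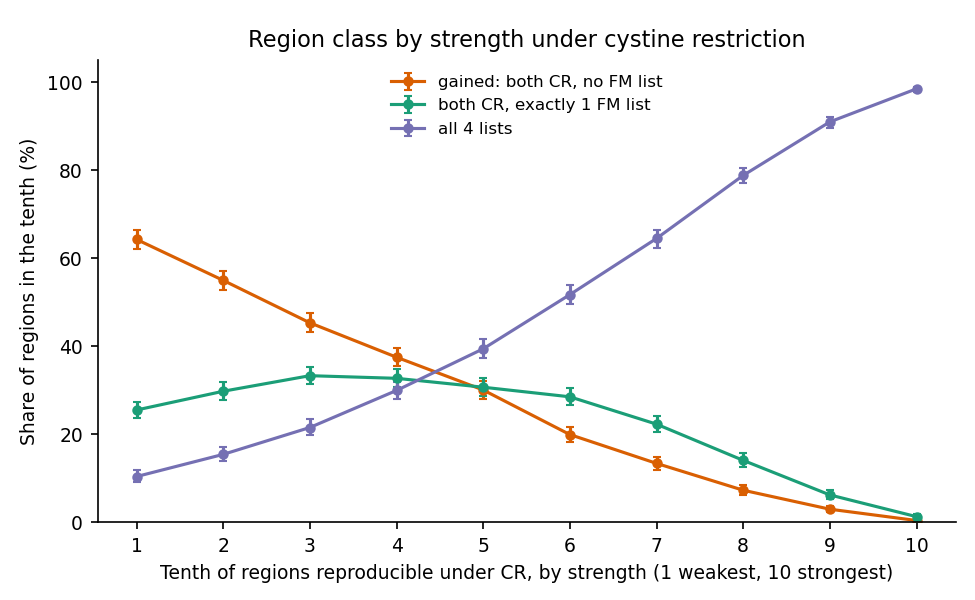
Share of gained, intermediate and common regions (%) in each decile of the 20633 regions reproducible under cystine restriction, from weakest (1) to strongest (10), with 95% Wilson intervals over regions. The intermediate share rose from 25.4% in the weakest decile to 33.3% in the third and fell to 1.21% in the strongest.

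More of the intermediate regions had their full-medium peak in replicate 2. They numbered 2632, or 57.0% (55.6 to 58.4), against 1985 with the peak in replicate 1, a ratio of 1.33. The ratio of replicate 2 to replicate 1 was 1.10 for all listed peaks and 1.19 for the genome background. Common regions, which both libraries list, held 66.3% of the peaks of replicate 1 and 59.9% of those of replicate 2. The 1.10 is therefore not a like measure for regions that only 1 full-medium library listed. The counts of 2632 and 1985 can also be read as regions missed. Of 12963 regions reproducible under cystine restriction with a peak in full-medium replicate 2, 20.3% (19.6 to 21.0) were missing in replicate 1. Of 12316 with a peak in replicate 1, 16.1% (15.5 to 16.8) were missing in replicate 2. The excess of replicate 2 was present on 21 of 23 chromosomes, with replicate 1 ahead on chromosomes 14 and 22. In each of the 10 strength groups replicate 2 held between 53.7% and 64.0% of the intermediate regions.

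The regions of the 2 full-medium libraries looked alike under cystine restriction. Median heights in cystine-restricted replicate 1 were 14.6 for the regions with a peak in full-medium replicate 1 and 14.6 for those with a peak in replicate 2. In cystine-restricted replicate 2 they were 14.8 and 13.8, a step of 1 tag in the median pileup, from 16 to 15. Median widths of the merged regions were 621 and 627 bp. No test of these differences was run.

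Where a peak was listed in both media, the summit was in most cases higher under cystine restriction. At intermediate regions the mean of the 2 cystine-restricted log2 heights exceeded that of the full-medium library with the peak with a median log2 difference of 0.43 (interquartile range 0.14 to 0.72), or 1.34-fold. It was above 0 at 3859 of 4617 regions, or 83.6% (82.5 to 84.6). Common regions had a median of 0.53 against the mean of both full-medium libraries, with 91.995% above 0, and of 0.38 against the higher of them, with 83.2% above 0. The full-medium peak of an intermediate region is by the rule the one that was listed, so only the higher side of full medium is seen there. The rule also asks for a peak in both cystine-restricted lists, which favours high values on that side. The differences therefore use the contrast that chose the members and carry no test. In a single pair of libraries, the median change at intermediate regions was 0.35 and 0.29 for cystine-restricted replicates 1 and 2 against full-medium replicate 1, and 0.55 and 0.49 against full-medium replicate 2. Common regions showed the same step between the full-medium libraries, with 0.44 against replicate 1 and 0.62 against replicate 2.

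Both cystine-restricted libraries were above the listed full-medium library at 3374 intermediate regions, or 73.1%. Over the 14948 intermediate and common regions together the background was 72.9%, counting regions where both cystine-restricted libraries exceeded each full-medium library with a peak. The members' share was thus at the background. Both were below the listed full-medium library at 425 intermediate regions, or 9.21%, against a background of 4.49%, with 279 of the 425 resting on full-medium replicate 1. A common region has 2 full-medium values to pass and an intermediate region only 1, and both counts use the contrast that chose the members, so nothing is read from them.

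**Figure D3:**
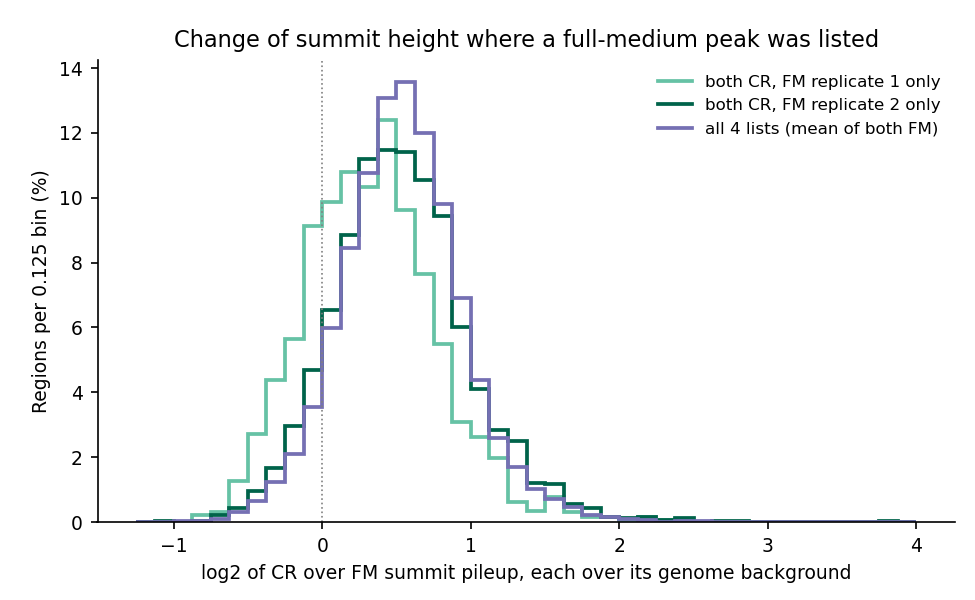
Log2 of cystine-restricted over full-medium summit height, each over its genome background, as the share of regions per bin (%), for intermediate regions with their peak in full-medium replicate 1 or 2 and for common regions. The dotted line marks no change; medians were 0.31, 0.51 and 0.53.

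The change depended on the scale used for the background. The local background is the higher of the genome background and the tags in a 10 kb window, and the deposited fold enrichment is taken over it. At intermediate regions the median local background was 1.91 and 1.79 times the genome background in cystine-restricted replicates 1 and 2 and 1.55 times in full-medium replicate 1, over the regions with a peak in the latter. Over those with a peak in full-medium replicate 2 it was 1.81, 1.72 and 1.41 times. The window includes the peak itself, so its own tags and those beside it cannot be told apart here. On the scale of the fold enrichment the median change was 0.20 (interquartile range −0.02 to 0.42), and 72.9% of intermediate regions were above 0. Common regions had a median of 0.21 on that scale, with 82.5% above 0.

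By decile of strength under cystine restriction, the median change was 0.03 among the 525 intermediate regions of the weakest, 0.48 among the 632 of the fifth and 1.26 among the 127 of the ninth. Common regions of the same deciles had medians of −0.04, 0.36 and 0.69. The deciles rank the cystine-restricted −log10 p, which at a given local background rises with the height on the upper side of the change. A rise is therefore favoured in both classes. In the strongest decile, 25 intermediate regions had a median of 1.87, or 3.65-fold, and a range of 1.19 to 3.87, against 0.68 at the 2032 common regions there. A region that is strong under cystine restriction can be intermediate only if 1 full-medium library fell short of listing it, so the rule also selects low full-medium values in these groups. Over all intermediate regions, 499, or 10.8%, had a log2 change above 1, 20 of these above 2, and 758 were at or below 0. Among common regions, against the mean of both full-medium libraries, 11.4% were above 1.

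Heights of the 2 cystine-restricted libraries differed little in the median at intermediate regions, with a spread from region to region. Their difference had a log2 median of 0.06 (interquartile range −0.20 to 0.33, 5th to 95th percentile −0.60 to 0.68). Spearman's rho was 0.75 over 4617 regions. The rule asks for a peak in both of these lists, so regions listed in only 1 of them are not seen here. Between the mean of the cystine-restricted libraries and the listed full-medium library, rho was 0.57 over the 1985 regions of replicate 1 and 0.60 over the 2632 of replicate 2. At common regions, which span a wider range of heights, rho between the cystine-restricted libraries was 0.92. These correlations are across regions within shared libraries, and regions are not independent replicates.

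The full-medium library without a peak is known only by what it did not list. If its local background were that of the other full-medium library scaled to its depth, the lowest pileup reaching its weakest listed −log10 p would have had a median of 8 tags over the intermediate regions (5th to 95th percentile 7 to 14). The pileup of the listed full-medium peak, scaled in the same way, had a median of 13.1 tags. It was less than 2 tags above the lowest listable pileup, or below it, at 881 regions, or 19.1%. It was more than 2-fold above at 518 regions, or 11.2%. These were mostly regions with a peak in replicate 1: 425 of the 1985 there, or 21.4%, and 93 of the 2632 of replicate 2, or 3.53%. With genome backgrounds of 1.11 and 1.32 tags, the scaling raises the tags of replicate 1 peaks and lowers those of replicate 2 peaks. The scaled pileup reached the lowest listable one at 100% of the former regions and 94.3% of the latter. What part of the difference comes from the scaling was not tested. The estimate takes no account of the smallest width listed, 150 bp in each list, which can also keep a summit off a list.

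**Figure D4:**
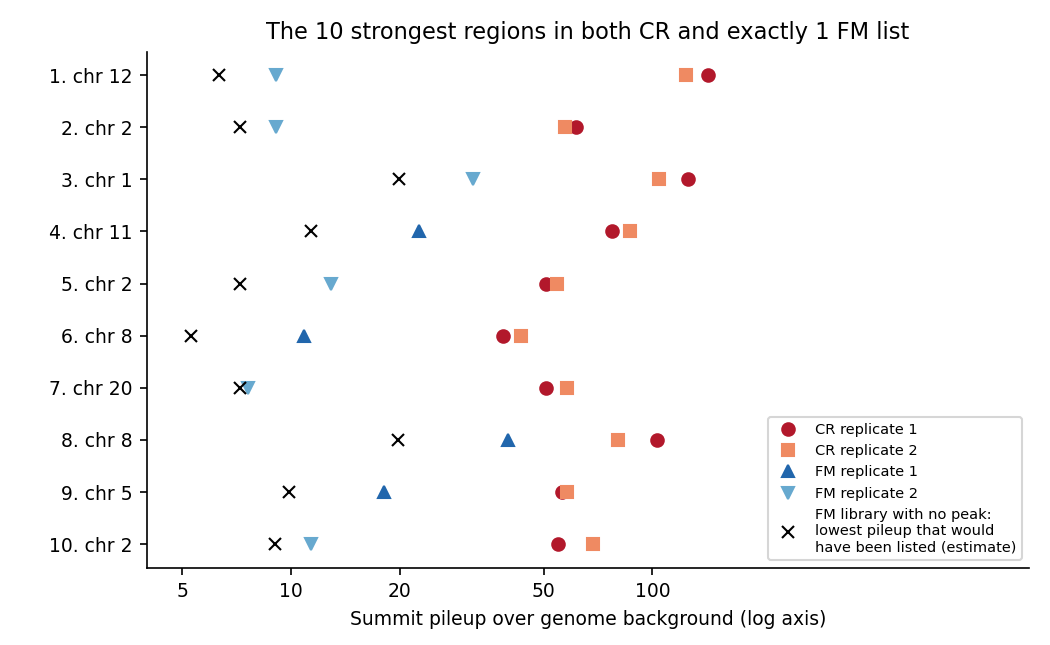
Summit pileup over genome background (log axis) in each library at the 10 intermediate regions strongest under cystine restriction, labelled by rank and chromosome. The cross marks the estimated lowest pileup that would have been listed in the full-medium library without a peak; both CR values lie between 38.5 and 142.5 and the listed FM values between 7.59 and 39.8.

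The strongest intermediate region under cystine restriction also had the largest change. It lay on chromosome 12 from 8350006 to 8351410 and was 1405 bp wide. Its summit held 185 tags in cystine-restricted replicate 1, 134 in its replicate 2 and 12 in full-medium replicate 2, with no peak in full-medium replicate 1. Over the genome background these were 142.5, 123.6 and 9.10, a 14.6-fold difference between the media. The nearest peak of full-medium replicate 1 was 43603 bp away. The region reached a −log10 q of 139.6 and 101.03 under cystine restriction and 4.49 in full medium. It was higher in both cystine-restricted libraries than each of the 3 gained regions that rank highest by the same measure, whose heights were 60.1, 55.5 and 53.2 in replicate 1 and 57.2, 57.2 and 47.05 in replicate 2.

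Both other regions with more than a 6-fold change among the strongest 10 had their full-medium peak in replicate 2 as well. The region on chromosome 2 from 33090243 to 33091195 had heights of 61.6 and 57.2 in cystine-restricted replicates 1 and 2 and 9.10 in full-medium replicate 2, a 6.52-fold difference. The region on chromosome 20 from 3103655 to 3104424 had heights of 50.9, 58.1 and 7.59, a 7.17-fold difference. At the latter the full-medium summit had 10 tags at a −log10 q of 2.56, so it was listed with little to spare.

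A further 3 of the 10 had a full-medium peak in replicate 2. On chromosome 1 from 212661423 to 212662212 the heights were 125.6 and 104.2 under cystine restriction and 31.9 in full-medium replicate 2, and the local background was high, with 27.0 and 19.3 tags under cystine restriction. On chromosome 2 from 88399428 to 88400355 they were 50.9, 54.4 and 12.9. On chromosome 2 from 172985930 to 172986627 they were 54.7, 68.3 and 11.4. The differences were 3.59-fold, 4.08-fold and 5.37-fold in this order.

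The other 4 of the 10 had their full-medium peak in replicate 1. On chromosome 11 from 12146038 to 12147145 the heights were 77.05 and 86.7 in cystine-restricted replicates 1 and 2 and 22.6 in full-medium replicate 1. On chromosome 8 from 12248811 to 12249393 they were 38.5, 43.4 and 10.8. On chromosome 5 from 168073508 to 168074681 they were 56.2, 58.1 and 18.1. The differences were 3.62-fold, 3.77-fold and 3.16-fold. The last, on chromosome 8 from 126540695 to 126541603, had heights of 103.2, 80.3 and 39.8, a 2.29-fold difference, and full-medium replicate 2 had a peak 530 bp from its edge. In each of the 10 regions both cystine-restricted values were above the full-medium value, which the choice of the strongest regions under cystine restriction favours.

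The intermediate regions highest in full medium had smaller differences between the media. They were chosen by the full-medium height over which the difference is taken, so the choice favours smaller differences. The highest lay on chromosome 11 from 65259447 to 65259793, with 123 and 75 tags under cystine restriction and 71 tags in full-medium replicate 2, against local backgrounds of 35.2, 27.5 and 27.6 tags. The next were on chromosomes 19 (47735755 to 47736630), 3 (46152602 to 46152855), 22 (30653365 to 30654105) and 12 (52597902 to 52598197). Over these 5 the full-medium height was 45.2 to 53.9 times the genome background and the difference between the media 1.255-fold to 1.56-fold. In each of them the local background of the full-medium peak was at least 13.4 tags, and the full-medium library without a peak had 1 within 188 to 3420 bp of the region.

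At the lower edge of the class, the weakest full-medium peaks had a −log10 q of 1.32 to 1.34, just above the 1.30 of a q of 0.05. All 3 were in replicate 1. The pileup there was 12 tags on chromosome 7 (75622751 to 75623568), 8 tags on chromosome 8 (20317161 to 20317984) and 7 tags on chromosome 17 (63160087 to 63160752). Just outside, the common regions with the weakest second full-medium peak had a −log10 q of 1.33 to 1.34 for it, at 7, 9 and 9 tags. On the side of the gained regions, which have no full-medium value, the strongest under cystine restriction are those on chromosomes 21, 10 and 17 whose heights were set beside the chromosome 12 region above.

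The 3 intermediate regions with the lowest change were chosen for naming after their values were seen. The lowest was on chromosome 3 from 46236506 to 46236719, with 11 and 7 tags under cystine restriction and 20 tags in full-medium replicate 2, or 0.49 times the full-medium height. On chromosome 1 from 12168394 to 12169071 the pileups were 16, 12 and, in full-medium replicate 1, 23 tags. On chromosome 17 from 19562560 to 19563311 they were 12, 10 and 18 tags, also in replicate 1. None of these 3 had a peak in the other full-medium library within 10 kb.

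The rule did not use the distance between regions or the place of the summit within a peak. The nearest common region was a median of 42614 bp away from an intermediate region, 52921 bp from a gained region and 30444 bp from another common region. Within 10 kb of a common region lay 19.6% (18.5 to 20.7) of intermediate regions, which was 2.78 percentage points more than of gained regions (95% Newcombe interval 1.28 to 4.29) while the difference from common regions was −5.26 points (−6.66 to −3.83). Within 1 kb the shares were 5.22%, 5.08% and 5.10%, and the intervals of the differences, −0.72 to 1.01 and −0.63 to 0.91 points, spanned 0. The intervals are over regions, which are not independent replicates.

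The nearest peak of the full-medium library that had none in the region was a median of 23611 bp away. At 416 intermediate regions, or 9.01% (8.22 to 9.87), that library had a peak within 1 kb of the region's edge, and at 1364, or 29.5%, within 10 kb. For regions with a peak in full-medium replicate 1 the share within 1 kb was 11.2% (9.87 to 12.6), and for those with a peak in replicate 2 it was 7.37% (6.43 to 8.43). Gained regions had a peak of full-medium replicate 1 within 1 kb in 8.20% and of replicate 2 in 9.15%, and within 10 kb in 25.3% and 27.6%.

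Summits of the 3 libraries that listed an intermediate region were a median of 44 to 56 bp apart by pair, with upper quartiles of 207 to 219 bp. The median distance was 44 bp between the cystine-restricted libraries, 56 bp between cystine-restricted replicate 1 and the full-medium library and 55 bp between replicate 2 and the full-medium library. They lay within 50 bp of each other at 52.8% (51.4 to 54.2), 48.0% (46.6 to 49.4) and 48.6% (47.2 to 50.05) of regions. Between the cystine-restricted libraries the median distance was 47 bp at gained and 24 bp at common regions. In 191 intermediate regions, or 4.14%, at least 1 pair of the 3 libraries was joined only through a peak of the third and had no base in common.

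Peaks of intermediate regions were narrower in full medium, as were those of common regions. The median width was 489 and 418 bp in cystine-restricted replicates 1 and 2, and 305 and 322 bp in full-medium replicates 1 and 2. Within the cystine-restricted lists gained regions had 389 and 346 bp and common regions 759 and 681 bp, so that in width, too, intermediate regions stood between. In full-medium replicates 1 and 2 common regions had 502 and 529 bp. Merged intermediate regions had a median width of 626 bp and ranged from 150 to 1764 bp.

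Intermediate regions took a similar share on each chromosome. Among the regions reproducible under cystine restriction the share ran from 20.02% (17.9 to 22.3) on chromosome 3 to 24.6% (22.3 to 27.0) on chromosome 11, a spread of 4.55 percentage points. The gained share spread over 17.7 points, from 18.4% on chromosome 19 to 36.1% on chromosome 15, and the common share over 20.5 points. The interval of the intermediate share left out the pooled 22.4% on 2 of 23 chromosomes, chromosomes 1 and 3, and that of the gained share left out its pooled value on 8. On chromosome 19, where the gained share was lowest, 21.4% (19.1 to 23.9) of regions were intermediate, and on chromosome 15, where it was highest, 24.1% (20.8 to 27.8) were. The difference in spread between the classes was not tested.

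**Figure D5:**
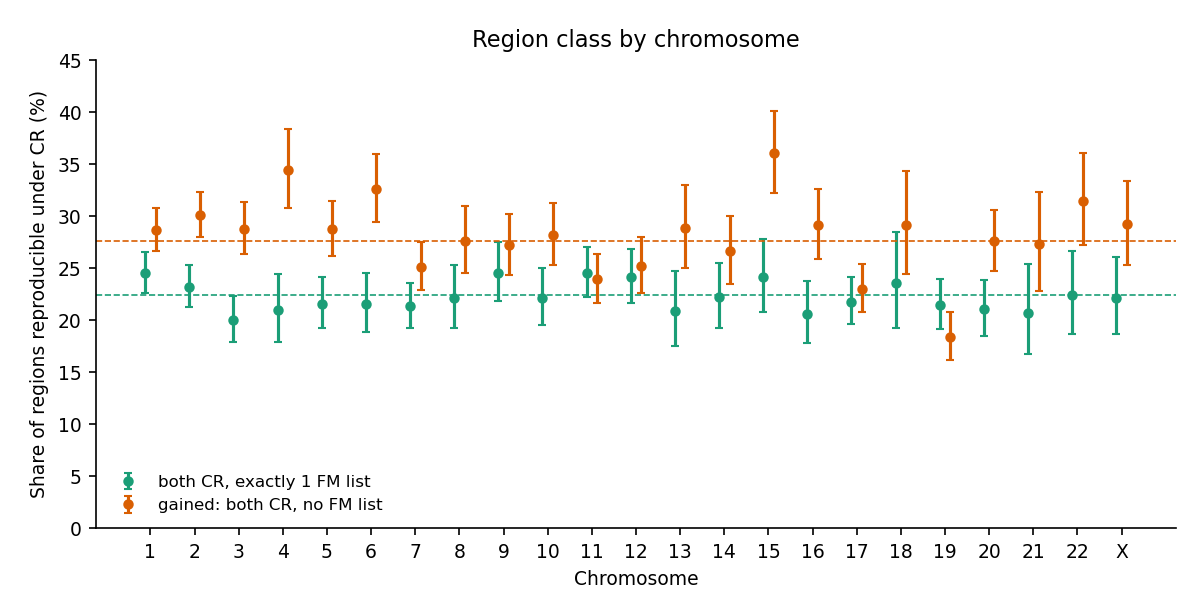
Share of intermediate and gained regions (%) among regions reproducible under cystine restriction on each chromosome, with 95% Wilson intervals; dashed lines mark the pooled shares of 22.4% and 27.6%. The intermediate share stays between 20.02% and 24.6%, and the gained share between 18.4% and 36.1%.

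The median log2 change of intermediate regions was positive on each chromosome, from 0.35 on chromosome 19 to 0.48 on chromosome 5. The share with the full-medium peak in replicate 2 was lowest on chromosome 22, with 41 of 94 regions or 43.6% (34.0 to 53.7), and highest on chromosome 18, with 65.3% (54.1 to 75.1), a spread of 21.7 points. Its interval left out the pooled 57.0% on 2 of 23 chromosomes, 14 and 22. CBS lies on chromosome 21, which held 69 intermediate regions, 28 with a peak in full-medium replicate 1 and 41 with a peak in replicate 2. Whether any of them belongs to CBS was not analysed here.

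Most intermediate regions had no other intermediate region within 10 kb, with other classes of region not counted. With gaps of up to 10 kb allowed, 4141 were single, 215 pairs and 14 triples formed, and 1 run held 4 regions. The run of 4 lay on chromosome 7 from 73120627 to 73140763. From left to right its full-medium heights were 28.9, 19.9 and 17.2 in replicate 1 and 19.0 in replicate 2, and its changes 1.05-fold, 1.30-fold, 1.63-fold and 1.32-fold. Among the triples, that on chromosome 3 from 46152225 to 46154097 included a region named above. Its 3 regions had heights of 67.04, 70.1 and 43.9 in cystine-restricted replicate 1, of 70.1, 74.7 and 44.3 in replicate 2 and of 44.8, 46.3 and 25.8 in full-medium replicate 2. A triple on chromosome 12 from 32907948 to 32909398 switched full-medium library between neighbours: its first region had its full-medium peak in replicate 1, at a height of 12.7, and the next, starting at 32908777, in replicate 2, at 16.7. Of 246 neighbouring pairs within 10 kb, 135, or 54.9% (48.6 to 61.0), had their peak in the same full-medium library, where the 2 shares alone would give 50.98%.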

How the data were processed

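Per the labels, ATF3 CUT&Tag was made from SW480 cells in 2 media, 2 libraries each. The submitters' processing notes name MACS2 2.2.7.1, BWA 0.7.17, fastp 0.19.7, bcl2fastq 2.17 and build hg19; the options of the caller were not given in the sources used here. The deposited lists, 1 per library, give for each peak its −log10 q, −log10 p, fold enrichment (a ratio) and a score of 10 times the −log10 q, all the authors' own. MACS2's fold is (pileup + 1)/(background + 1) and its p is a Poisson tail. Solving both for a whole-number pileup matched 100% of peaks, with a tolerance of 0.1% on the deposited −log10 p. The steps were tested on simulated data. Merging was checked against bedtools 2.31.1 (44826 regions by both). Scripts ran in Python 3.11.15 with pandas 2.3.3, scipy 1.17.1 and numpy 2.4.6. In a region the strongest peak per list gave its values.

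The named regions are the 10 strongest by the lower cystine-restricted rank percentile, the 5 highest in full medium and 3 on each side of the threshold. Members and lists were chosen with earlier results of these data known. The planned reading of gene lists, start sites and motifs was not run: no genome or annotation of hg19 was used here. Alternatives tried were a floor of 5 on −log10 q, equal numbers of top peaks, a reciprocal overlap of 50%, merging over gaps of up to 200 bp, leaving out libraries, the replicate block and the local background as scale.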

Additional observations from a re-analysis of the deposited data

Results flagged for a closer look

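Chromosome Y and contigs without a fixed place were left out of the comparisons above and held regions of the same kind, which is why they are given here. Of their 395 merged regions, 28 met the rule for intermediate regions, 16 of them with the peak in full-medium replicate 2 and 12 with it in replicate 1. This was 12.2% (95% Wilson interval 8.60 to 17.1) of the 229 regions reproducible under cystine restriction there, beside 178 common and 23 gained regions. The lists held 302 and 296 peaks there under cystine restriction, against 250 and 263 for full medium. The cause of the lower share than on the other chromosomes was not tested.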

How the results depend on the processing

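The number of intermediate regions stayed within 1.5 times of 4617 except with equal numbers of top peaks from each library, where it was 2346. On the unchanged merged regions, 1604 of the 4617 still met the rule with a −log10 q floor of 5 and 2257 with equal numbers. The share of reproducible cystine-restricted regions was 21.5% with a −log10 q floor of 5, 17.99% with equal numbers and 25.8% with a reciprocal overlap of 50%. Without a cystine-restricted library, the rule asked for a peak in the other and in exactly 1 full-medium list. The share was then 19.3% to 19.7% of all regions with a peak in that other list, which need not be reproducible. The ratio of regions with a full-medium replicate 2 peak to those with a replicate 1 peak stayed above 1 in each alternative run. It was 1.14 with a −log10 q floor of 5 and 1.19 with equal numbers. The median log2 change was positive in each, at 0.63 with equal numbers, 0.20 on the local background and 0.42 within same-numbered libraries (replicate block). It was 0.37 to 0.38 without a cystine-restricted library. Split by the full-medium library with the peak, it was 0.31 for replicate 1 and 0.51 for replicate 2. These are parts of the main result, and no full-medium library was left out for them. The mean of the 2 cystine-restricted median heights, 14.7, became 18.5 with a −log10 q floor of 5, 18.9 with equal numbers, 18.0 with reciprocal overlap, 14.2 with gaps merged and 13.8 to 13.9 without a cystine-restricted library. The ratio of peak numbers was 1.62 to 1.85 without a library, 1.83 with a −log10 q floor of 5 and 1.73 with the replicate block. Deviations of same-numbered libraries had a correlation of 0.01 over common regions, and with 2 numbers no pairing can be shown. The cause of these shifts was not tested. Without a full-medium library the rule has no members, and start sites and motifs were not run. The weakest regions rest on few tags: the smallest listed pileup was 7, or 6 for cystine-restricted replicate 2.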

Other observations

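The reverse class, with a peak in both full-medium libraries and in exactly 1 cystine-restricted library, was 7.48 times smaller than the intermediate class. The cystine-restricted lists held a mean of 1.73 times as many peaks, so the class sizes do not rest on lists of equal length. The reverse class was not counted with equal numbers of top peaks. It held 617 regions, or 5.55% (95% Wilson interval 5.14 to 5.99) of the 11121 regions reproducible in full medium. In 432 of them, or 70.0% (66.3 to 73.5), the cystine-restricted peak was in replicate 1 and in 185 in replicate 2, a ratio of 2.34. The ratio of these libraries was 1.14 for all listed peaks and 1.20 for the genome background. All listed peaks include those in regions that both libraries listed, so the 1.14 is not a like measure for the 2.34. The full-medium heights of the reverse class had medians of 11.7 and 10.6 in replicates 1 and 2. Beside these, intermediate regions had 11.7 and 9.86 in the library that listed them. The medians of the listed cystine-restricted peak were 13.1 in replicate 1 and 12.9 in replicate 2.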
